A study of Mus musculus with 15 samples.

Results

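The interferon regulatory factors are transcription factors that share a DNA-binding domain and read related GAAA repeats in the control regions of interferon and interferon-stimulated genes. The 8 members described here, Irf1, Irf2, Irf3, Irf4, Irf5, Irf7, Irf8 and Irf9, were chosen by gene symbol alone, and each had its own entry among the 24690 entries of the RNA-seq files. They were followed through 15 libraries of group 2 innate lymphoid cells (ILC2s) from the intestinal lamina propria (LP) and of their bone marrow (BM) precursors (ILC2p), from mice with or without deletion of Tgfbr2, which encodes TGF-β receptor II. The comparisons ask what loss of the receptor does to transcription in the mature cell and in the precursor. Each cell type was studied in 2 experiments.

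All cells came from C57BL/6 mice that carried the floxed Tgfbr2 alleles together with ER-Cre, a Cre recombinase that tamoxifen activates, so the controls shared these alleles. WT ILC2s (4 libraries, 2 from each experiment) came from mice given sunflower oil for 5 days, and Tgfbr2-/- ILC2s (3 libraries, 2 from experiment 1 and 1 from experiment 2) from mice given tamoxifen at 1 mg per day for 5 days, at 8 to 12 weeks of age. These LP cells were sorted as CD45+Lin–CD127+Sca-1+CD25+KLRG1+. ILC2p (2 WT and 2 Tgfbr2-/- libraries in each experiment) were sorted as CD45.2+Lin–CD127+α4β7+CD25+ from mixed BM chimeras, 6 weeks after marrow of oil- or tamoxifen-treated donors was transferred with CD45.1 marrow into lethally irradiated CD45.1 hosts. The donors were treated as above, at the same dose, duration and age. The lineage antibodies included CD3, CD11b, CD11c and Gr-1. The promoter that drives Cre and the number of mice behind a library are not given in the sources used here, so p-values measure only the spread between these libraries, which may be technical. The depth of a library, as its total count over all entries, lay between 12167066 and 32114265 for ILC2s and between 10957021 and 35961215 for ILC2p. Cell type was tied to the experiment, the host and the sort gate, and these cannot be told apart.

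The family divides by role. IRF3 and IRF7 are activated by kinases downstream of nucleic acid sensors and switch on the type I interferon genes, and IRF5 works downstream of Toll-like receptors through MyD88. IRF9 is the DNA-binding subunit of the complex that forms after type I interferon binds its receptor. IRF1 is induced by interferon-γ and activates genes of antigen presentation, and IRF2 binds the same sites and can oppose it. IRF4 and IRF8 are mostly restricted to blood cells, bind DNA with partners such as PU.1 and the BATF and JUN proteins, and are known from lymphocytes and plasma cells (IRF4) and from monocytes and dendritic cells (IRF8).

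In the mm9 assembly used for the counts, with gene bounds from GENCODE vM1, Irf1 lies at chr11:53583516-53591876, Irf4 at chr13:30841095-30858796, Irf5 at chr6:29476625-29491869 and Irf9 at chr14:56222408-56228867, all on the plus strand. Irf3 (chr7:52253018-52258218, plus strand) and Irf7 (chr7:148448605-148452380, minus strand) share a chromosome, as do Irf2 (chr8:47825099-47932812) and Irf8 (chr8:123260258-123280594), both on the plus strand. All are annotated as protein coding, and each count covers the whole transcript.

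Promoter sequence is shown for Irf1, Irf2 and Irf8, the members whose windows held letters that match the sites of STAT factors or of the IRFs themselves. RefSeq sequence of the GRCm38.p6 build, from 250 bases before to 50 after each start, was searched on both strands for the STAT site TTCNNNGAA and for the interferon-stimulated response element GAAANNGAAA, which do not overlap in these windows. Of 11 such windows of the members, 3 held a match. Among all 32851 windows, 8.3% held TTCNNNGAA and 3.44% held GAAANNGAAA. The stretches below run 5′ to 3′ on the plus strand with the matches in capitals, at chr11:53769888-53769967 (Irf1), chr8:46739495-46739574 (Irf2) and chr8:120736160-120736239 (Irf8).
Irf1: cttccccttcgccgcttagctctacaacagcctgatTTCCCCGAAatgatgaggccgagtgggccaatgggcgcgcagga
Irf2: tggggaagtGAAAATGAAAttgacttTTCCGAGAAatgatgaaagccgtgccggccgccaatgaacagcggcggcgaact
Irf8: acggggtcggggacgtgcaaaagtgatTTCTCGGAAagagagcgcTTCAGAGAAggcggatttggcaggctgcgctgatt
The Irf1 match starts at position -90 from the start site. Irf8 carried 2 STAT sites, at -171 and -153, and Irf2 carried the response element at -241 and a STAT site at -224. A match describes the letters only, and no binding was measured.

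Tgfbr2 itself was read first, as a check of the labels. In CPM, counts per 1e6 of the library total scaled by edgeR's TMM factors over the 15 libraries, it stood at 172.1 and 261.9 (experiment 1) and 149.7 and 207.1 (experiment 2) in WT ILC2s and at 206.2, 184.1 and 96.57 in Tgfbr2-/- ILC2s. In ILC2p it stood at 0.7142, 233.0, 107.4 and 188.4 in WT and at 87.37, 130.1, 30.91 and 218.8 in Tgfbr2-/- libraries. The groups overlapped in both cell types. The entry counts reads over the whole transcript and not over the floxed part alone, so it does not check the deletion, and genotypes are used here as the libraries are labelled.

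Some ILC2p libraries stood apart in how many genes they lacked. Among genes whose median reached 50 CPM over the remaining libraries of the same cell type, 14.16% were under 1 CPM in WT ILC2p experiment 1 replicate 1, 12.13% and 13.85% in the Tgfbr2-/- ILC2p of experiment 1, and 8.333% in Tgfbr2-/- ILC2p experiment 2 replicate 2. The other ILC2p libraries had between 1.56% and 3.655%, and the ILC2 libraries at most 0.02847%. Several members were at a few counts in just those libraries, and the genotype differences in ILC2p of Irf3, Irf5, Irf7, Irf8 and Irf9 are given with and without the 3 libraries above 10%. Without those 3, experiment 1 keeps only WT ILC2p replicate 2. The genotype values without them therefore rest on experiment 2, which still holds the library with 8.333%.

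Markers of other cells also differed between the ILC2p groups. The 15 ILC2 markers summed to between 9376 and 13290 CPM in ILC2s and between 9064 and 13070 in WT ILC2p, but to 4296, 4471, 4282 and 5797 CPM in Tgfbr2-/- ILC2p. The 10 neutrophil markers summed to between 794.5 and 1563 CPM in WT ILC2p, where Mpo led, and to 95060, 80240, 78990 and 93070 CPM in Tgfbr2-/- ILC2p, where S100a8 alone reached between 23800 and 29610 CPM. The 9 macrophage and monocyte markers summed to between 215.8 and 370.5 CPM in WT ILC2p and to between 11930 and 13760 CPM in Tgfbr2-/- ILC2p, nearly all from Lyz2. The 7 basophil and mast cell markers summed to between 216.9 and 310.4 CPM in WT ILC2p and to 1228, 1634, 1496 and 2042 CPM in Tgfbr2-/- ILC2p, where Prss34 led with between 823.4 and 946.7 CPM. In ILC2s the neutrophil sum was between 0.048 and 4.054 CPM. In bulk RNA, fewer cells of a type and less RNA per cell cannot be told apart. The part of these cells in the member levels of Tgfbr2-/- ILC2p was not tested.

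Levels of different genes were compared by the deposited RPKM, which is per transcript length. Irf1, the interferon-γ-induced activator, was the most abundant member in every group, at a median of 189.4 RPKM in WT ILC2s, 201.5 in Tgfbr2-/- ILC2s, 163.4 in WT ILC2p and 75.53 in Tgfbr2-/- ILC2p. In WT ILC2s it was followed by Irf3 (65.88 RPKM), Irf7 (57.38), Irf2 (27.18), Irf9 (25.74), Irf5 (7.902), Irf8 (4.025) and Irf4 (3.849). Only the step from Irf1 to Irf3 was free of overlap between libraries in that order.

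In Tgfbr2-/- ILC2s the order of the median RPKM was Irf1, Irf7 (119.4), Irf3 (59.9), Irf2 (39.47), Irf5 (37.96), Irf9 (35.72), Irf8 (6.931) and Irf4 (1.289). The libraries did not overlap between Irf7 and Irf3, Irf3 and Irf2, Irf9 and Irf8, or Irf8 and Irf4, with 3 libraries behind each value. In WT ILC2p the order was Irf1, Irf3 (85.17), Irf5 (49.04), Irf9 (48.27), Irf2 (42.27), Irf7 (17.83), Irf8 (9.856) and Irf4 (0.003378), and only Irf8 and Irf4 were separated. In Tgfbr2-/- ILC2p no neighbours were separated, from Irf1 through Irf7 (62.89), Irf8 (39.7), Irf5 (34.7), Irf3 (32.72), Irf2 (27.76) and Irf9 (1.809) to Irf4 (0.2487). Irf4 closed the order in all 4 groups.

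Irf1 supplied between 28.74% and 61.9% of the family's counts in the ILC2 libraries and between 15.39% and 42.62% in the ILC2p libraries. Its share was highest in the WT ILC2s of experiment 1 (61.9% and 58.67%) and lowest in Tgfbr2-/- ILC2p experiment 2 replicate 2. The plot of stacked RPKM gives the composition of each library per transcript length, in which the shares differ from those by counts.

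**Figure D1:**
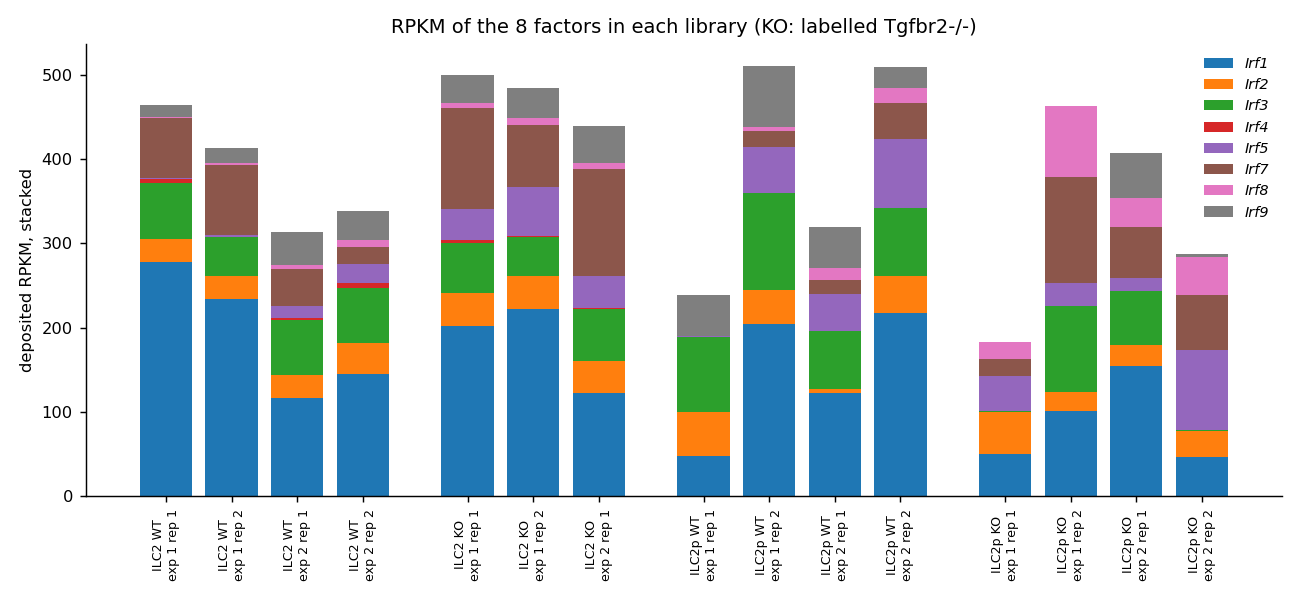
Deposited RPKM (y axis, linear, from 0) of the 8 factors stacked for each of the 15 libraries (x axis, by cell type, labelled genotype, experiment and replicate). Irf1 (blue) is the largest segment in the ILC2 libraries except Tgfbr2-/- experiment 2, where Irf7 (127.2 RPKM) exceeds it (122.1 RPKM), and the green Irf3 and grey Irf9 segments are near 0 in some Tgfbr2-/- ILC2p libraries.

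The first comparison set Tgfbr2-/- against WT ILC2s, with the experiment as a covariate in edgeR's quasi-likelihood test. A gene was called at an adjusted p under 0.1 and a fold change over 1.5, the limits of the study's own methods. No member was called by edgeR, and neither was any other gene: 0 of 11981 genes passed (0%). By edgeR 557 had an unadjusted p under 0.05, and 338 genes were called by DESeq2. The largest difference in the family was that of Irf5.

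Irf5, the factor downstream of Toll-like receptors, had 2.527 and 3.078 CPM in the WT ILC2s of experiment 1, where the Tgfbr2-/- ILC2s had 73.37 and 120.6 CPM. In experiment 2 the WT libraries had 25.73 and 42.88 CPM, and the Tgfbr2-/- library had 71.17 CPM. Every Tgfbr2-/- library was therefore above every WT library, and the WT libraries of the experiments were far apart. The log2 fold change was 3.80 (SE 0.93, 95% interval 1.68 to 5.92), with an adjusted p of 0.898 by edgeR and of 6.74e-05 by DESeq2. DESeq2 was the only other setting with an adjusted p under 0.1, and the highest was 1.0. In experiment 1 alone the log2 fold change was 5.09, and in experiment 2 alone it was 1.09. The exact permutation test of the genotype within experiments gave a two-sided p of 0.111, where 0.0556 is the smallest that its 18 arrangements allow.

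Irf2 and Irf9 also separated the genotypes within each experiment. Irf9, the DNA-binding subunit of the type I interferon response complex, stood at 34.02 and 35.97 (WT) against 66.48 and 76.34 CPM (Tgfbr2-/-) in experiment 1, and at 75.78 and 65.85 against 85.15 CPM in experiment 2. Its log2 fold change was 0.70 (SE 0.26, interval 0.10 to 1.30, edgeR adjusted p = 0.898, exact permutation p = 0.167). Irf2, which can oppose IRF1, stood at 67.62 and 64.97 against 87.05 and 95.75 CPM in experiment 1 and at 58.22 and 76.61 against 81.51 CPM in experiment 2. Its log2 fold change was 0.36 (SE 0.22, interval -0.15 to 0.87, edgeR adjusted p = 0.898, exact permutation p = 0.111). So 3 of 8 members had every Tgfbr2-/- library above every WT library of its experiment, against 7.11% of all genes tested. No member had every Tgfbr2-/- library below, against 5.58%.

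Irf7, the interferon-induced driver of type I interferon genes, stood at 126.0 and 140.8 against 189.3 and 126.4 CPM in experiment 1. In experiment 2 it stood at 67.62 and 30.03 CPM in WT against 193.9 CPM in the Tgfbr2-/- library. The genotypes overlapped in experiment 1 only. The log2 fold change was 0.96 (SE 0.43, interval -0.03 to 1.94, edgeR adjusted p = 0.898). It was 0.21 without that Tgfbr2-/- library and at most 1.29 with another library left out.

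For Irf1, Irf3, Irf4 and Irf8 the intervals also spanned 0. Irf1 stood at 648.5 and 494.2 against 404.9 and 479.4 CPM in experiment 1 and at 226.2 and 260.1 against 227.1 CPM in experiment 2, a log2 fold change of -0.29 (interval -0.70 to 0.12). Irf3 ranged from 91.62 to 144.4 CPM over the 7 ILC2 libraries and its log2 fold change was -0.19 (interval -0.71 to 0.34). Irf8 lay between 1.825 and 20.32 CPM in WT ILC2s and between 14.39 and 24.19 CPM in Tgfbr2-/- ILC2s (log2 fold change 1.31, interval -0.61 to 3.23, and 0.70 to 2.05 with 1 library left out). Irf4 ranged from 4.521 to 22.74 CPM in WT and from 4.623 to 11.17 CPM in Tgfbr2-/- ILC2s (-1.19, interval -3.16 to 0.78, and -1.67 to -0.46 with 1 library left out). The edgeR adjusted p was between 0.898 and 0.932 for these 4 members.

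Markers of other cells were read in the same libraries, and none was called between genotypes. The macrophage and monocyte markers summed to 1.03, 44.25, 54.78 and 233.2 CPM in WT and to 30.52, 43.76 and 29.69 CPM in Tgfbr2-/- ILC2s, with a median log2 fold change of 2.36 and 5 of 7 above 0. The NK and ILC1 markers, led by Nkg7 in all but 1 library, summed to between 735.3 and 1070 CPM in WT and to 862.8, 1136 and 1615 CPM in Tgfbr2-/- ILC2s (median 1.47, 6 of 7 above 0), with Eomes and Klra4 at 0 counts throughout. The epithelial markers had a median of 2.22, with 6 of 8 above 0. The plasma cell markers, another known source of Irf4, summed to 466, 383.5, 49.15 and 193.6 CPM in WT and to 61.23, 47.86 and 70.96 CPM in Tgfbr2-/- ILC2s, and Igj, the most abundant of them, had a log2 fold change of -2.71 (edgeR adjusted p = 0.877). The part of these cells in the differences of Irf4, Irf5, Irf7 and Irf8 was not tested.

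Over the whole family the median log2 fold change was 0.53, against -0.01 over all genes tested, and 5 of 8 members were above 0. The plot of every library by group shows that the ILC2 groups overlapped for all members but Irf2 and Irf5 once the experiments were put together.

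**Figure D2:**
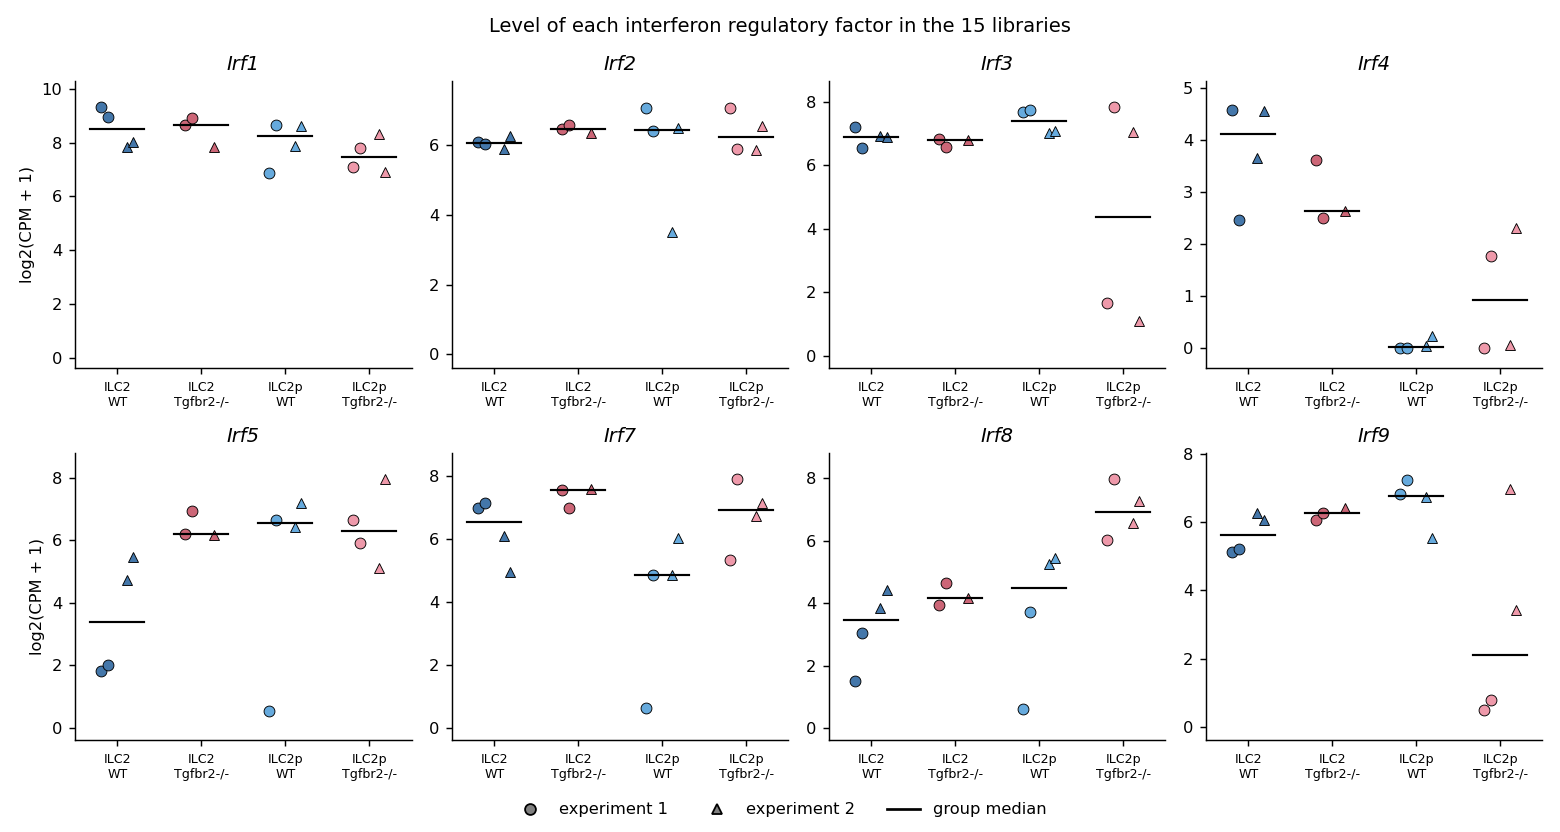
Level of each of the 8 factors as log2(CPM + 1) (y axes, one scale per panel) in the 15 libraries, by cell type and labelled genotype (x axis), with circles for experiment 1, triangles for experiment 2 and a line at the group median. Irf4 is near 0 in all 4 WT ILC2p libraries, and 1 or more ILC2p libraries lie far below the rest of their group for Irf2, Irf3, Irf5, Irf7, Irf8 and Irf9.

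The second comparison set Tgfbr2-/- against WT ILC2p. Again no member was called by edgeR, while 321 of 9242 genes were (3.47%). DESeq2 gave adjusted p-values under 0.1 for Irf8 and Irf9, as printed below. Irf4 had too few counts to be tested there, so 7 members entered the fit. The 2 members whose levels separated the genotypes in both experiments were Irf7 and Irf8.

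Irf8, the factor of monocytes and dendritic cells, stood at 0.5356 and 12.21 CPM in WT in experiment 1, against 63.24 and 249.0 CPM in the Tgfbr2-/- ILC2p. In experiment 2 the WT values were 37.09 and 42.07 CPM and the Tgfbr2-/- values 94.59 and 151.9 CPM. All 4 Tgfbr2-/- libraries were above all 4 WT libraries. The log2 fold change was 3.10 (SE 1.29, interval 0.18 to 6.01), with an adjusted p of 0.46 by edgeR and of 0.0179 by DESeq2. The exact permutation p of 0.0556 is the smallest that the 36 arrangements allow. Without the 3 libraries with the most missing genes, and so from experiment 2, the log2 fold change was 1.56. Over all the other settings the adjusted p was between 0.0179 and 0.763, and DESeq2 gave the only one under 0.1.

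Irf7 stood at 0.5356 and 28.2 (WT) against 39.12 and 238.8 CPM (Tgfbr2-/-) in experiment 1, and at 27.84 and 64.29 against 104.6 and 140.2 CPM in experiment 2. The highest WT library of experiment 2 exceeded the lowest Tgfbr2-/- library of experiment 1, but within each experiment the genotypes did not overlap. The log2 fold change was 2.32 (SE 1.26, interval -0.54 to 5.17, edgeR adjusted p = 0.705, exact permutation p = 0.0556), and 1.34 without those 3 libraries. Thus 2 of 7 members had every Tgfbr2-/- library above every WT library of its experiment, against 8.06% of all genes tested, and none had every one below, against 5.94%.

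Markers of other cells differed in the same libraries. The 4 Tgfbr2-/- ILC2p libraries that held the highest sums of neutrophil, of macrophage and monocyte and of basophil and mast cell markers were also those with the highest Irf8. The dendritic cell markers had a median log2 fold change of 0.62, with 4 of 5 above 0. For plasmacytoid dendritic cell markers it was -1.91, with 1 of 4 above 0, and none of either list was called. Spi1, which encodes PU.1, a partner of IRF8 in myeloid cells, rose by 7.69 on the log2 scale in Tgfbr2-/- ILC2p (SE 0.57, edgeR adjusted p = 0.000124), from between 1.334 and 4.526 CPM to between 469.9 and 814.3 CPM. The plot of both genes against the neutrophil sum shows every library.

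**Figure D3:**
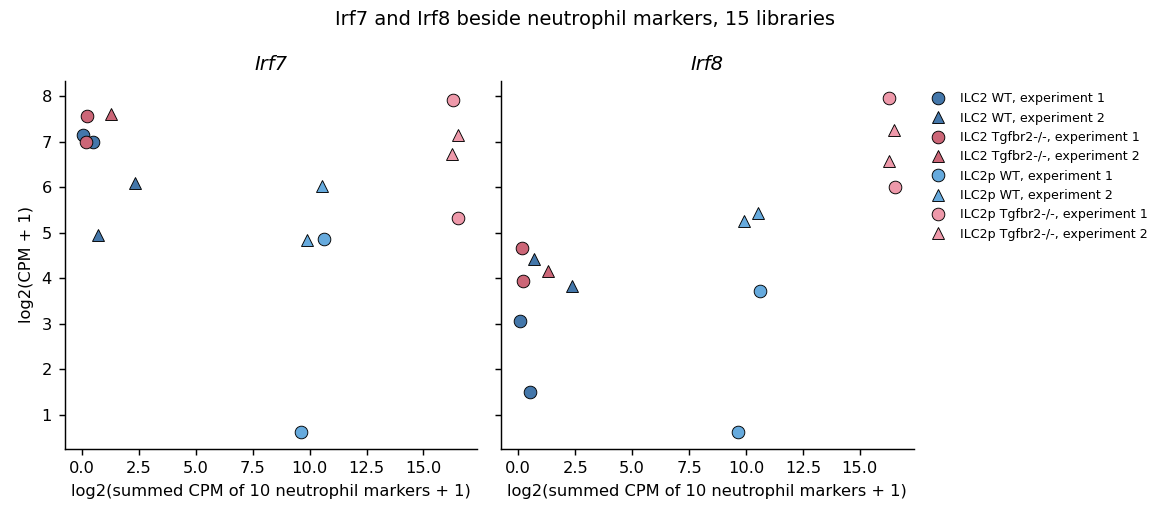
Irf7 (left) and Irf8 (right) as log2(CPM + 1) against log2 of the summed CPM of 10 neutrophil markers plus 1, for 15 libraries coloured by cell type and labelled genotype, with circles for experiment 1 and triangles for experiment 2. ILC2s lie at the left, WT ILC2p in the middle and Tgfbr2-/- ILC2p at the right, where Irf8 is highest.

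Irf9 and Irf3 were near 0 in single Tgfbr2-/- ILC2p libraries. Irf9 had 111.9, 151.4, 105.2 and 45.37 CPM in WT ILC2p, against 0.3971, 0.7259, 126.0 and 9.681 CPM in Tgfbr2-/- ILC2p, the lowest of them resting on 4 and 7 counts. The log2 fold change was -3.94 (SE 2.52, interval -9.65 to 1.77, edgeR adjusted p = 0.788, DESeq2 adjusted p = 0.0387), and it was -0.20 without the 3 libraries with the most missing genes. Over the other settings the adjusted p reached 0.999, and DESeq2 alone gave one under 0.1.

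Irf3 stood at 204.1, 211.3, 129.3 and 135.0 CPM in WT ILC2p and at 2.184, 225.1, 130.1 and 1.123 CPM in Tgfbr2-/- ILC2p. The other libraries of each experiment lay close to the WT level, and the low values were 22 and 29 counts. Its log2 fold change was -0.95 (interval -3.98 to 2.09, edgeR adjusted p = 0.928), and -1.05 without the 3 libraries with the most missing genes. With 1 library left out it lay between -2.45, without Tgfbr2-/- experiment 1 replicate 2, and -0.51, without Tgfbr2-/- experiment 2 replicate 2. The difference of mean log2 CPM between the genotypes was -2.98 (exact permutation p = 0.444).

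The remaining members overlapped between the genotypes. Irf1 stood at 116.9, 402.2, 235.2 and 387.8 CPM in WT and at 134.0, 224.6, 314.9 and 117.8 CPM in Tgfbr2-/- ILC2p (log2 fold change -0.55, interval -1.73 to 0.63). Irf5 ranged from 0.4463 to 145.6 CPM in WT and from 33.63 to 247.5 CPM in Tgfbr2-/- ILC2p (0.43, interval -2.33 to 3.19, and 0.20 without those 3 libraries). Irf2 ranged from 10.38 to 134.1 CPM in WT and from 57.43 to 133.8 CPM in Tgfbr2-/- ILC2p (0.17, interval -1.72 to 2.06). The signs of the Irf2 and Irf5 values turned with the scaling of the libraries. Irf4 had 0, 0, 1 and 7 counts in the WT libraries and 0, 23, 1 and 101 counts in the Tgfbr2-/- libraries. The 23 and 101 counts were those of replicate 2 in each experiment.

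The family's median log2 fold change in ILC2p was 0.17, against -0.10 over all genes tested, and 4 of 7 members were above 0. Correlations between members are given as a description only. Irf7 and Irf8 had a Pearson r of 0.97 on the log2(CPM + 1) scale over the 8 ILC2p libraries, which share depth and genotype differences, and of -0.22 over the 7 ILC2 libraries.

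The third comparison set ILC2s against ILC2p in WT mice. Irf4 was the only member called, among 302 of 12806 genes called in either direction (2.36%) and 211 called higher in ILC2s (1.65%). It stood at 22.74, 4.521, 11.65 and 22.7 CPM in ILC2s and at 0, 0, 0.02829 and 0.1698 CPM in ILC2p. Irf4 passed the count filter of this fit through the ILC2 libraries, where it was high, so its test is not independent of the difference and is given as a description. Each ILC2 library was above each ILC2p library. Irf4 was the 1 member of 8 with this separation, which 7.05% of all genes showed, and no member was lower in every ILC2 library, against 3.76%.

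Irf4 was higher in ILC2s by 7.99 on the log2 scale (SE 2.12, interval 3.48 to 12.49, edgeR adjusted p = 0.087). In summed counts, 1112 of 72155138 in WT ILC2s stood against 8 of 98156886 in WT ILC2p, a 189-fold ratio with an exact (Clopper-Pearson) 95% interval of 95.6 to 439 that covers counting error only. Of the 8 counts 7 came from WT ILC2p experiment 2 replicate 2, without which the ratio was 959 (interval 172 to 3.79e+04). The call was lost without a filter on low counts (adjusted p = 0.131), in either experiment alone (0.339 and 0.768) and when any of the 8 compared libraries was left out, except WT ILC2p experiment 2 replicate 2, without which the adjusted p was 0.0907. With 1 library left out the adjusted p was at most 0.198 and the log2 fold change lay between 7.60 and 9.70. Without the 3 libraries with the most missing genes the adjusted p was 0.086.

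Plasma cells and B cells are other known sources of Irf4. The 5 plasma cell markers summed to 466, 383.5, 49.15 and 193.6 CPM in WT ILC2s, mostly Igj, and to between 1.518 and 25.52 CPM in WT ILC2p. Igj and Cd79a were both called higher in WT ILC2s, with log2 fold changes of 6.77 and 10.81 (edgeR adjusted p = 0.0741 and 0.0832). Cd79a had 0 counts in all 4 WT ILC2p libraries, so it entered this fit through the ILC2 libraries, and its call and fold change are a description only. The 8 B cell markers summed to between 45.78 and 96.65 CPM in the 7 ILC2 libraries, with Cd79b as the most abundant gene and Pax5 at 0 counts in each of them, and to between 0.7638 and 42.04 CPM in WT ILC2p. In Tgfbr2-/- ILC2p the plasma cell sum was 663.8, 1.037, 627.2 and 1.162 CPM. WT ILC2s had 3 of 7 tested NK and ILC1, 2 of 7 ILC3 and 1 of 8 T cell markers called higher, none lower. These calls are a description only, since genes such as Il22, with 0 counts in every ILC2p library, entered through the ILC2 libraries. The part of these cells in the Irf4 difference was not tested.

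By edgeR the same contrast in Tgfbr2-/- libraries called 1492 of 12806 genes (11.7%) and no member. Irf4 stood at 11.17, 4.623 and 5.167 CPM in ILC2s and at 0, 2.385, 0.04257 and 3.911 CPM in ILC2p, again with each ILC2 library above each ILC2p library, as for 18.1% of all genes. Its log2 fold change was 2.13 (interval -1.49 to 5.75, edgeR adjusted p = 0.558). In summed counts 568 of 73621518 stood against 125 of 79092114, a 4.88-fold ratio (interval 4.02 to 5.97, counting error only). Of the 125 counts 101 came from ILC2p experiment 2 replicate 2, without which the ratio was 15.1 (interval 10.1 to 23.8), and without ILC2s experiment 1 replicate 1 it was 3.16 (interval 2.52 to 3.96).

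Irf8 was the member below ILC2p in every Tgfbr2-/- ILC2 library, a pattern of 7.18% of all genes. Its levels were 14.39, 24.19 and 16.88 CPM in ILC2s and 63.24, 249.0, 94.59 and 151.9 CPM in ILC2p. The log2 fold change was -2.92 (SE 1.17, interval -5.40 to -0.44), with an adjusted p of 0.147 by edgeR and of 0.0132 by DESeq2. The edgeR adjusted p was 0.0872 without the 3 libraries with the most missing genes and 0.0348 when only the compared groups were fitted, and it reached 0.401 under the other settings. Neutrophil, macrophage, monocyte, basophil and mast cell markers were high in the same ILC2p libraries, as given above. Of 6 dendritic cell markers tested, 2 were called lower in ILC2s and none higher, where 11.7% of all genes were called. Cd209a, 1 of those tested, had 0 counts in the Tgfbr2-/- ILC2s and entered through the ILC2p libraries, so this count is a description only. In the WT libraries the log2 fold change of Irf8 was -1.11 (interval -3.19 to 0.97).

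For the other 6 members the intervals spanned 0 in both genotypes. In WT libraries Irf5 had the largest difference, at -2.16 (interval -4.63 to 0.32), and Irf7 followed at 1.59 (interval -0.30 to 3.48). With 1 library left out, Irf5 lay between -2.99 and -1.74 and Irf7 between 1.18 and 2.27. Irf1 was at 0.51 in WT libraries, where it was -0.42 in experiment 2 alone, and at 0.91 in Tgfbr2-/- libraries. Irf9 was at -0.97 and 1.15, and in Tgfbr2-/- libraries it was called when ILC2p experiment 2 replicate 1, the library with 126.0 CPM, was left out (4.38, edgeR adjusted p = 0.0272), in experiment 1 alone (6.97, adjusted p = 0.0386) and by limma on log2(RPKM + 1) (3.16, adjusted p = 0.0645). Its adjusted p reached 0.981 under the other settings. Irf2 and Irf3 lay between -0.52 and 0.24 in both genotypes, and the signs of Irf2 in both and of Irf3 and Irf5 in Tgfbr2-/- libraries turned with the processing. The family's median was -0.39 in WT and 0.31 in Tgfbr2-/- libraries, against -0.02 and -0.04 over all genes.

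**Figure D4:**
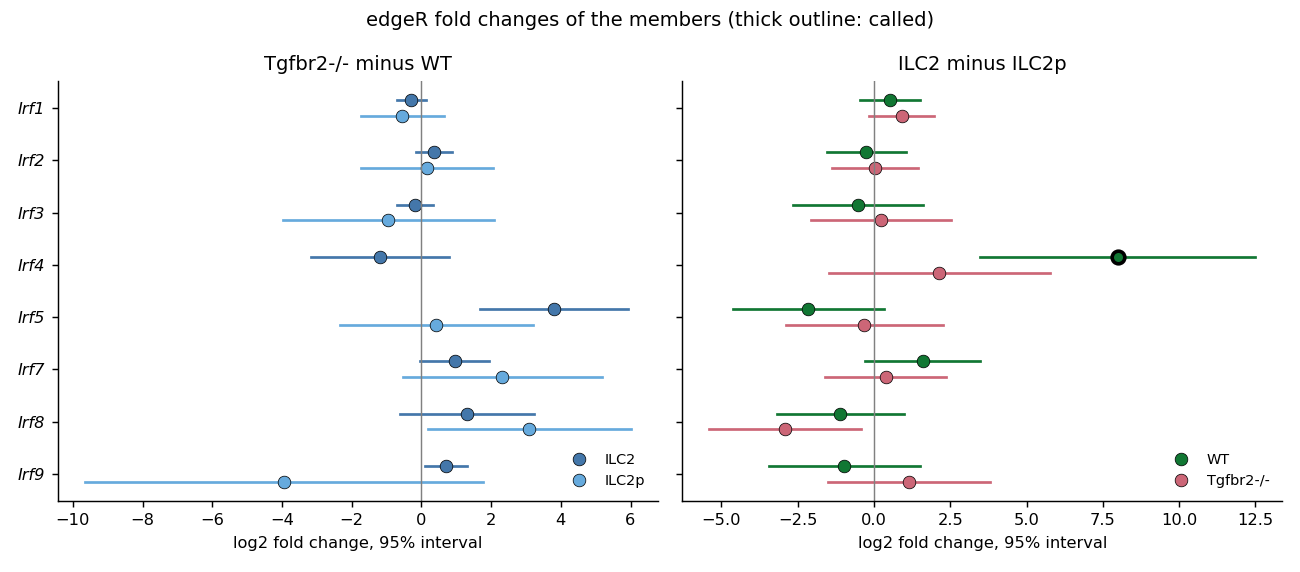
log2 fold changes of the members by edgeR with 95% intervals (x axes), on the left for Tgfbr2-/- minus WT in ILC2s and ILC2p and on the right for ILC2s minus ILC2p in WT and Tgfbr2-/- libraries. The heavy outline marks the call of Irf4 in WT, and Irf4 has no value for genotype in ILC2p because it was not tested there.

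Whether the genotype effect differed between the cell types was tested as an interaction over the 15 libraries, and 127 of 12806 genes were called (0.992%), with a median over all genes of 0.31. No member was called by edgeR. Irf4 had a log2 difference of -6.41 (SE 2.64, edgeR adjusted p = 0.331, DESeq2 adjusted p = 0.0376), and -7.65 to -5.03 with 1 library left out. This is a description only, since Irf4 entered this fit through the ILC2 libraries. Irf9, whose fold changes lay on opposite sides of 0 in ILC2s and ILC2p, had 4.62 (SE 2.43, edgeR adjusted p = 0.496, DESeq2 adjusted p = 0.0645). Without Tgfbr2-/- ILC2p experiment 2 replicate 1 the Irf9 value was 6.30 with an edgeR adjusted p of 0.0634, and over all 15 libraries left out in turn it lay between 2.41, without Tgfbr2-/- ILC2p experiment 1 replicate 1, and 6.94, with adjusted p-values up to 0.716. Irf5, at 3.80 in ILC2s and 0.43 in ILC2p, had a difference of 3.40 (interval -0.76 to 7.56, edgeR adjusted p = 0.551).

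The experiments, which are batches here, differed in Irf1. Across the 7 ILC2 libraries 117 of 11981 genes were called between experiments (0.977%), 83 of them lower in experiment 2 (0.693%), and Irf1 was the only member among them. With any 1 library left out only 0 to 10 genes were called. All 4 libraries of experiment 1 lay between 404.9 and 648.5 CPM, and the 3 of experiment 2 between 226.2 and 260.1 CPM. Irf1 was lower by 1.15 on the log2 scale in experiment 2 (SE 0.18, interval -1.57 to -0.73, edgeR adjusted p = 0.078, DESeq2 adjusted p = 1.93e-06). The call was lost when any of the 7 libraries was left out, with fold changes from -1.29 to -0.99 and adjusted p-values from 0.119 to 0.328, and under library size scaling (adjusted p = 0.101). In the WT libraries alone the difference was -1.12 (adjusted p = 0.38).

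Epithelial markers moved with the ILC2 experiments beside Irf1. The 9 markers summed to 14.41, 15.92, 47.68 and 43.21 CPM in experiment 1 and to 232.4, 430.2 and 983.4 CPM in experiment 2, and 5 of the 8 tested were called higher. The 7 tested macrophage and monocyte markers were all above 0 (median 3.92) and 6 of 7 ILC3 markers below (median -2.08), with none of either called. Ifng had a log2 fold change of -1.97 (edgeR adjusted p = 0.174), and Il22, the most abundant ILC3 marker of experiment 1, stood at 390.3, 156.0, 157.3 and 203.9 CPM there and at 12.44, 1.676 and 104.1 CPM in experiment 2. Their part in the Irf1 difference was not tested. Socs3, a feedback inhibitor of cytokine receptors, fell by 1.22 on the log2 scale in experiment 2 (edgeR adjusted p = 0.0999). In ILC2p no gene was called between experiments (0 of 9242, 0%, by edgeR, with 288 at an unadjusted p under 0.05 and 397 called by DESeq2), and the difference of Irf1 was 0.22 (interval -0.96 to 1.41).

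The genes around the family, from interferon receptors to target genes, were read from whole lists. In ILC2s none of the 5 tested interferon receptor genes, 9 JAK-STAT genes, 19 sensors and kinases, 17 DNA-binding partners and 23 interferon target genes was called between genotypes. The median of the interferon target genes was 0.66, against -0.01 over all genes, with 19 of 23 above 0. Some of them, such as Rsad2 and Mx2, passed the count filter through the Tgfbr2-/- libraries, where they were high. Rsad2 had 6, 7, 108 and 0 counts in WT and 554, 280 and 240 in Tgfbr2-/- ILC2s. The median and the number above 0 are therefore a description only. Isg15, a ubiquitin-like interferon target, had the log2 fold change 0.91 (SE 0.23, edgeR adjusted p = 0.898).

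In ILC2p the receptor gene Ifngr1, which encodes the ligand-binding chain for interferon-γ, rose by 1.49 on the log2 scale in Tgfbr2-/- libraries (SE 0.28, edgeR adjusted p = 0.0253), from between 135.7 and 276.9 CPM to between 421.9 and 728.9 CPM. It was 1 of 5 receptor genes tested, and the other 4 were not called. Of all genes 3.47% were called in this comparison. Of the 15 DNA-binding partners tested, Spi1 rose and Jun, Junb and Jund fell, by 1.13, 1.15 and 1.97 on the log2 scale (edgeR adjusted p = 0.00485, 0.0269 and 0.004). JUN proteins pair with BATF at sites that IRF4 and IRF8 share.

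Of 19 interferon target genes tested in ILC2p, Ifitm3, a membrane protein that restricts viral entry, was the 1 called, higher by 6.96 on the log2 scale (edgeR adjusted p = 0.000124). The calls of this and the following lists stand beside 3.47% of all genes called. The list's median was 1.29, with 14 of 19 above 0, against -0.10 over all genes. None of the 9 JAK-STAT genes and 17 sensors and kinases was called, and their medians were -0.56 and -0.68. The neutrophil list had 9 of 10 genes called higher, with a median of 8.22. The basophil and mast cell list had 4 of 6 (Fcer1a, Gata2, Mcpt8 and Prss34), with a median of 8.02. Fcer1a, Gata2 and Mcpt8 reached at most 0.7355, 1.132 and 1.867 CPM in WT ILC2p. They entered this fit through the Tgfbr2-/- libraries, where they were high, so their calls and the list's median are a description only. Of the NK and ILC1 markers 1 of 5 was called higher (Gzma), and of the T cell markers 1 of 2 was called lower (Lat). Gzma reached at most 0.198 CPM in WT ILC2p and also entered through the Tgfbr2-/- libraries, so its call is a description only. In the ILC2 marker list Gata3, Id2 and Il1rl1 fell and none of 14 tested rose. The neutrophil, monocyte, basophil and mast cell markers were high in the same libraries as Ifngr1, Spi1 and Ifitm3, and their part in these differences was not tested.

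Between the cell types in WT libraries, 2.36% of all genes were called. Ifngr1, 1 of 5 interferon receptor genes tested, was higher in ILC2s by 1.18 on the log2 scale (edgeR adjusted p = 0.0518). Tlr7, a sensor of single-stranded RNA upstream of IRF5 and IRF7, had 370, 3, 54 and 53 counts in WT ILC2s and 0 in all ILC2p. Tlr7 was the 1 called of 19 sensors and kinases tested, and it passed the count filter through the ILC2 libraries alone. Of 18 DNA-binding partners tested, Jun and Jund were called lower in ILC2s and none higher. Their log2 fold changes were -1.80 and -2.74 (edgeR adjusted p = 9.19e-05 and 0.000545). None of 23 interferon target genes or 9 JAK-STAT genes was called. In Tgfbr2-/- libraries Ifng, which encodes interferon-γ, stood at between 18.63 and 46.23 CPM in ILC2s and at most 0.2129 CPM in ILC2p and was called higher (adjusted p = 0.0524). Of 18 DNA-binding partners tested, 2 were called higher (Junb and Ets1) and 2 lower (Spi1 and Jun) in ILC2s. Of 23 interferon target genes, 1 was called higher (Mx2) and 2 lower (Ddx60 and Ifitm3). In this contrast 11.7% of all genes were called. Ifng and Mx2 had too few counts in ILC2p to pass the filter there, and entered this fit through the ILC2 libraries. Jund was the 1 partner whose genotype effect differed between the cell types (1.85, edgeR adjusted p = 0.0552).

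The genes most like each member were listed by Pearson r of log2(CPM + 1) over the 15 libraries, among 8924 genes with a mean of at least 10 CPM. The libraries share cell type, genotype and missing genes, and r describes this set only. For Irf3 they were Trappc6a (0.986), Adam17 (0.973) and Coq2 (0.970), and for Irf9 Oxr1 (0.967), Stard3nl (0.949) and Acp5 (0.942). For Irf8 they were Ethe1 (0.946), Gstm1 (0.944) and Mettl9 (0.942), and for Irf4 Ccr4 (0.900), Tgm2 (0.898) and Abcb1a (0.889). For Irf7 Sipa1 (0.910), Sf1 (0.909) and Igtp (0.908) led, of which Igtp is an interferon-inducible GTPase. For Irf1 the leading genes were Tm2d2, Hdgfrp2 and Camta2 (0.863, 0.863 and 0.862), for Irf2 Ggt5 (0.912), Def6 (0.873) and Akirin1 (0.865), and for Irf5 Rcc1 (0.877), Rars (0.862) and Usp22 (0.827).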

How the data were processed

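Reads were aligned by the authors to the mm9 build using TopHat with multiple hits kept (the labels name Bowtie2). For each library the authors deposited raw counts per RefSeq gene from the rpkmforgenes script, over full transcripts and without regions where genes of different names overlap. Beside them the authors deposited RPKM. The strand is not stated in the sources used here, so reads of overlapping antisense genes cannot be told apart.

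Groups, experiments and replicates came from the labels, with 1 exception. The label of the Tgfbr2-/- ILC2 library of experiment 2 gives no replicate number, and that library was numbered 1. Counts were analysed with edgeR 4.0.16 (R 4.3.3; TMM, filterByExpr with a minimum count of 10, quasi-likelihood test, Benjamini-Hochberg over all entries tested). The genotype fits had the experiment as covariate, and the cell type fits used 4 groups over 15 libraries. CPM use TMM-scaled totals. Each test was repeated with DESeq2 1.42.0, with limma 3.58.1 on log2(RPKM + 1) and log2(RPKM + 0.1), and with other scalings and filters, a replicate block, single experiments and each library left out. Exact permutation tests shuffled genotype within experiments. The fits were tested on simulated data.

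The members and gene lists were chosen with earlier results of these data known. All 8 members are named whatever their values, with up to 4 called genes per list and 3 most alike genes per member. Isg15, Il22 and the leading genes of marker lists lie outside that rule and were named after their values were seen. Some genes, and a target list built on one of them, are not reported here. Replicates of the same group and experiment differed by more than sampling noise (chi-square per degree of freedom from 120 to 898), so none was a repeat run of the same library. This does not show whether they came from separate mice or from the same pool. Their Pearson r of log2 CPM across genes was 0.629 to 0.872 for ILC2 pairs and 0.023 to 0.517 for ILC2p pairs.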

Additional observations from a re-analysis of the deposited data

Results flagged for a closer look

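In WT ILC2p, Irf5 in experiment 1 replicate 1 stood at 0.4463 CPM, far below the other 3 libraries (100.6, 84.47 and 145.6 CPM). The gap to its nearest neighbour on the log2(CPM + 1) scale was 0.883 of the whole range, above Dixon's critical value of 0.829 for 4 libraries. It was the 1 such case among 24 groups of 4 libraries tested, where chance gives about 5%. The same library had the largest share of missing genes, 14.16%, and had 6 counts each for Irf7 and Irf8.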

How the results depend on the processing

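Of 642 member fold changes under other settings, 609 kept their direction and 33 did not, none of them of Irf4, Irf7, Irf8 or Irf9. The 16 differences in RPKM between groups moved by less than the spread between libraries. The low counts of Irf4 in ILC2p, and of Irf3, Irf5, Irf7, Irf8 and Irf9 in single libraries there, limit the precision of their fold changes. The causes of the changes below were not tested. Leaving out the 3 ILC2p libraries, single libraries for the interaction, the experiments and the Irf4 count ratios, and the Tgfbr2-/- ILC2s for the experiments were chosen after seeing the data.

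Replicate numbers did not pair the samples: the correlation of same-numbered deviations was -0.06 in ILC2s and -0.01 and -0.04 in ILC2p over 8924 genes. With a replicate block 175 genes were called for genotype in ILC2p instead of 321, and no member call changed under it. Genotype in ILC2s gave 0 calls, against 338 by DESeq2, 3 by limma on log2(RPKM + 0.1) and 3 without a filter. Genotype in ILC2p gave 1229 by DESeq2, 199 with at least 10 counts in every library, 38 in experiment 1, 77 in experiment 2, 61 without the 3 libraries with the most missing genes, and from 179 to 319 with each library left out. Higher and lower calls were 241 and 80, against 217 and 111 with library size scaling and 203 and 119 with upper quartile scaling, which moved the median of all genes to -0.31 and -0.40.

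Cell type in WT gave 302 calls, against 950 by DESeq2, 98 with at least 10 counts, 151 at an adjusted p under 0.05 without a fold limit, 44 and 34 in experiments 1 and 2, and from 156 to 238 with a library left out. In Tgfbr2-/- libraries it gave 1492, against 2529 by DESeq2, 988 without a filter, 412 with at least 10 counts, 750 at the stricter p, 391 and 114 in experiments 1 and 2, and from 596 to 1904. Its higher and lower calls were 1051 and 441, against 1518 and 330 with upper quartile scaling and 1435 and 1094 by DESeq2, and the median of all genes moved to 0.23 with library size and 0.44 with upper quartile scaling. The interaction gave 127, against 1518 by DESeq2, 196 with library size scaling, and from 14 to 407. Experiment in ILC2s gave 117, against 1347 by DESeq2, 23 with library size scaling, 0 in WT alone, and from 0 to 10. Experiment in ILC2p gave 0, and 397 by DESeq2.

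Directions turned as follows, in log2 fold change. Irf2 for genotype in ILC2p was 0.17, and -0.08 with library size scaling, -0.16 with upper quartile scaling, -0.20 in experiment 1 and from -0.24 to 0.81 with a library left out. Irf5 there was 0.43, -0.06 with upper quartile scaling and from -0.18 to 1.70. Irf3 for genotype in ILC2s went from -0.32 to 0.03. For cell type in WT, Irf2 was -0.25, and 0.14 and 0.18 by limma with 1 and 0.1 added, 0.37 in experiment 2, 0.13 without the 3 libraries and from -0.62 to 0.13. Irf1 there was 0.51, and -0.42 in experiment 2. For cell type in Tgfbr2-/- libraries, Irf2 was 0.04, and -0.16 by DESeq2, -0.04 without a filter, -0.05 with only the compared groups, -0.08 in experiment 1 and from -0.12 to 0.34. Irf3 was 0.24, and -0.02 by DESeq2, -0.14 in experiment 1 and from -0.18 to 1.25. Irf5 was -0.32, and 0.24 and 0.26 by limma, 0.02 with library size and 0.24 with upper quartile scaling, 0.57 with the experiment within cell type, 0.27 in experiment 1 and from -0.62 to 0.45.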

Other observations

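The genes named after IRF2-binding proteins, Irf2bp1, Irf2bp2 and Irf2bpl, were not called in either genotype comparison. In Tgfbr2-/- against WT ILC2p the log2 fold changes were -2.73 for Irf2bp1 (SE 3.16), -1.15 for Irf2bp2 (SE 0.69) and -3.94 for Irf2bpl (SE 2.31), with edgeR adjusted p-values from 0.748 to 0.917. In ILC2s they were 0.08, -0.28 and -0.31.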
